A study of Rattus norvegicus with 9 samples.

Results

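The genes described here mark mast cells, basophils and eosinophils: the mast cell granule proteases Cpa3, Tpsab1, Tpsb2 and Cma1, the IgE receptor subunits Ms4a2 and Fcer1a, the histamine-forming enzyme gene Hdc, the stem cell factor receptor gene Kit, and the eosinophil granule genes Prg2 and Epx. They were taken by their symbols from a deposited table of 23026 genes, and all 10 were present and passed the filter on low counts, which 16874 genes passed. RNA came from the bone of ovary-intact or ovariectomized female Sprague-Dawley rats, which were 8 weeks old at purchase, and whose treatment began 6 weeks after surgery and ran for 8 weeks by daily gavage. The Sham group (n = 3) lost only fat from beside the ovary, the OVX group (n = 3) was ovariectomized, and both received the vehicle sodium carboxymethyl cellulose (CMC-Na). The OVX-AS-IV-High group (n = 3), called treated below, was ovariectomized and received astragaloside IV, a saponin of Astragalus root, at 80 mg/kg. No group of ovary-intact rats given astragaloside IV was analysed here. The labels give the vehicle as 1%, 2% and 3% CMC-Na for Sham replicates 1, 2 and 3 and as 1% for OVX. The study's methods instead describe a single vehicle strength for both groups, so what the Sham replicates received is uncertain. Each library held between 34874880 and 37298250 counts.

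Mast cells, basophils and eosinophils arise from blood progenitors in the bone marrow. Mast cells and basophils carry the high-affinity IgE receptor, whose cross-linking releases histamine and granule proteases, and mast cells need signals from Kit to survive. Eosinophils store a peroxidase and major basic protein in their granules and depend on interleukin 5. Mast cell numbers and mediators have long been of interest in bone because histamine and granule proteases act on bone-resorbing and bone-forming cells.

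The RNA came from whole tissue, so fewer cells of a type and less RNA per cell cannot be told apart in any value given here. Bone markers such as Bglap and Col1a1 were expressed in every library, and 7 bone genes summed to 3702-10476 CPM (read counts scaled to a common library depth) in Sham, 7949-13347 CPM in OVX and 4501-11266 CPM in OVX-AS-IV-High. Pan-leukocyte genes summed to 2636-2872 CPM in Sham, 3364-3573 CPM in OVX and 3450-3709 CPM in OVX-AS-IV-High, and skeletal muscle genes to 1544-8482, 1512-2974 and 519-4200 CPM. Sham replicates 1 and 2 held the highest muscle levels, at 8482 and 5476 CPM. A list of 6 adipocyte genes summed to 284-386 CPM in Sham, 470-651 CPM in OVX and 457-645 CPM in OVX-AS-IV-High. B lineage genes summed to 563-759, 982-1058 and 687-1018 CPM, and 5 of 5 lay higher in every OVX library than in every Sham library, against 12.7% of all genes tested. The part of these other cell types in the values below was not tested.

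Promoter sequences of 8 of the 10 genes were found in RefSeq (GRCr8); Ms4a2 and Prg2 were not matched. Promoters are shown for Cma1, Epx, Cpa3 and the tryptase genes, which varied together. Cma1 and Epx alone among the 10 genes had differences that passed the thresholds used below. Each sequence runs from 250 bases before to 50 bases after the annotated start, 5′ to 3′ on the gene's strand. GATA words are in capitals. A GATA word is GATA with A or T before it and A or G after it, on either strand, the letters bound by the GATA factors of these lineages.
Cma1, chr15:33390084-33390383, minus strand: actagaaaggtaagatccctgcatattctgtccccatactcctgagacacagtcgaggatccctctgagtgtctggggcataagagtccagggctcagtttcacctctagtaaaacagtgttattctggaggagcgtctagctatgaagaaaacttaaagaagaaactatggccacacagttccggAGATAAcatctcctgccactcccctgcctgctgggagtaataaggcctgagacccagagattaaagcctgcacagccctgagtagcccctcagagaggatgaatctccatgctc
Cpa3, chr2:104673188-104673487, minus strand: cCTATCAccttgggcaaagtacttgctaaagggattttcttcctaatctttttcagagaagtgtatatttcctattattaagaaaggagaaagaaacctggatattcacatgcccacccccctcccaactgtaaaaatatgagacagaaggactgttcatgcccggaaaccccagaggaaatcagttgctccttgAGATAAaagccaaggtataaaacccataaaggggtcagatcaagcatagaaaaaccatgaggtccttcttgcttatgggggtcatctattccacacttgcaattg
Epx, chr10:73175131-73175430, minus strand: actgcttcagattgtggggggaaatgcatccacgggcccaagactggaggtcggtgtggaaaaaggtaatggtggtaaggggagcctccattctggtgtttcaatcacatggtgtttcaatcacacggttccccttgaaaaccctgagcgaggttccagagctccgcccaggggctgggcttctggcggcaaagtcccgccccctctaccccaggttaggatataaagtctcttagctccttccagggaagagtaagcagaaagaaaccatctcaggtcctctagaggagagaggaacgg
Tpsab1, chr10:14867253-14867552, minus strand: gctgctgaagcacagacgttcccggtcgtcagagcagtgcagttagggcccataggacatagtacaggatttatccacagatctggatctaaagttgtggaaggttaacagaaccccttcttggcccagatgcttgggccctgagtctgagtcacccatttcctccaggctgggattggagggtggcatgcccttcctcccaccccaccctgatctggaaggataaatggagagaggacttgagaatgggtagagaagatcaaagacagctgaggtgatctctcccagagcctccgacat
Tpsb2, chr10:14886060-14886359, plus strand: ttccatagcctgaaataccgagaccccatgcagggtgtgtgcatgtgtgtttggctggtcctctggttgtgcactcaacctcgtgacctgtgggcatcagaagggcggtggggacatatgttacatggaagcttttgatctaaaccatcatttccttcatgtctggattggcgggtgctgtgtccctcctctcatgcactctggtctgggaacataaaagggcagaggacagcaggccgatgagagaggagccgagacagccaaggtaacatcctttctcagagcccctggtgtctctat
Cma1 held a GATA word that began at position -64, and Cpa3 held GATA words at -55 and -249, counted back from the start. Fcer1a held a GATA word at -93. In all, 3 of 8 promoters held a GATA word, against 30.3% of 33469 RefSeq promoters of 300 bases, so the share among these genes was close to that of all genes. Tpsab1 and Tpsb2 lie next to each other on chromosome 10, and in a global alignment their promoters were identical in 173 of 318 aligned columns (54.4%). Epx lies close to Mpo, the neutrophil myeloperoxidase gene, on the same chromosome, with Lpo and Mks1 between them.

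Levels between genes were compared per length, as FPKM (fragment counts scaled to gene length and library depth). Prg2 had the highest mean level of the 10 genes, 407 FPKM over 9 libraries, which is rank 172 among the genes tested. Epx followed with 85.1 FPKM, Ms4a2 with 39.3, Cma1 with 31.9 and Hdc with 20.5 FPKM. Cpa3 (8.19 FPKM), Fcer1a (6.78) and Kit (6.59) lay lower, and the tryptase genes Tpsb2 (3.40) and Tpsab1 (1.79) were lowest. Among these 10 genes, Prg2 and Epx thus stood above the others in every library, with Prg2 above Epx and Epx above Ms4a2 in 9 of 9 libraries. Proteases outside the 10 genes, described below, were not part of this order. Mcpt10 exceeded Prg2 in every OVX library (518, 481 and 458 against 372, 258 and 383 FPKM). It also did so in Sham replicate 2 (549 against 453 FPKM) and treated replicate 1 (366 against 311 FPKM), and lay below Prg2 in the other libraries. Further down the order, neighbours crossed: Ms4a2 exceeded Cma1 in 5 of 9 libraries, Fcer1a exceeded Kit in 6 and Tpsb2 exceeded Tpsab1 in 7.

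**Figure D1:**
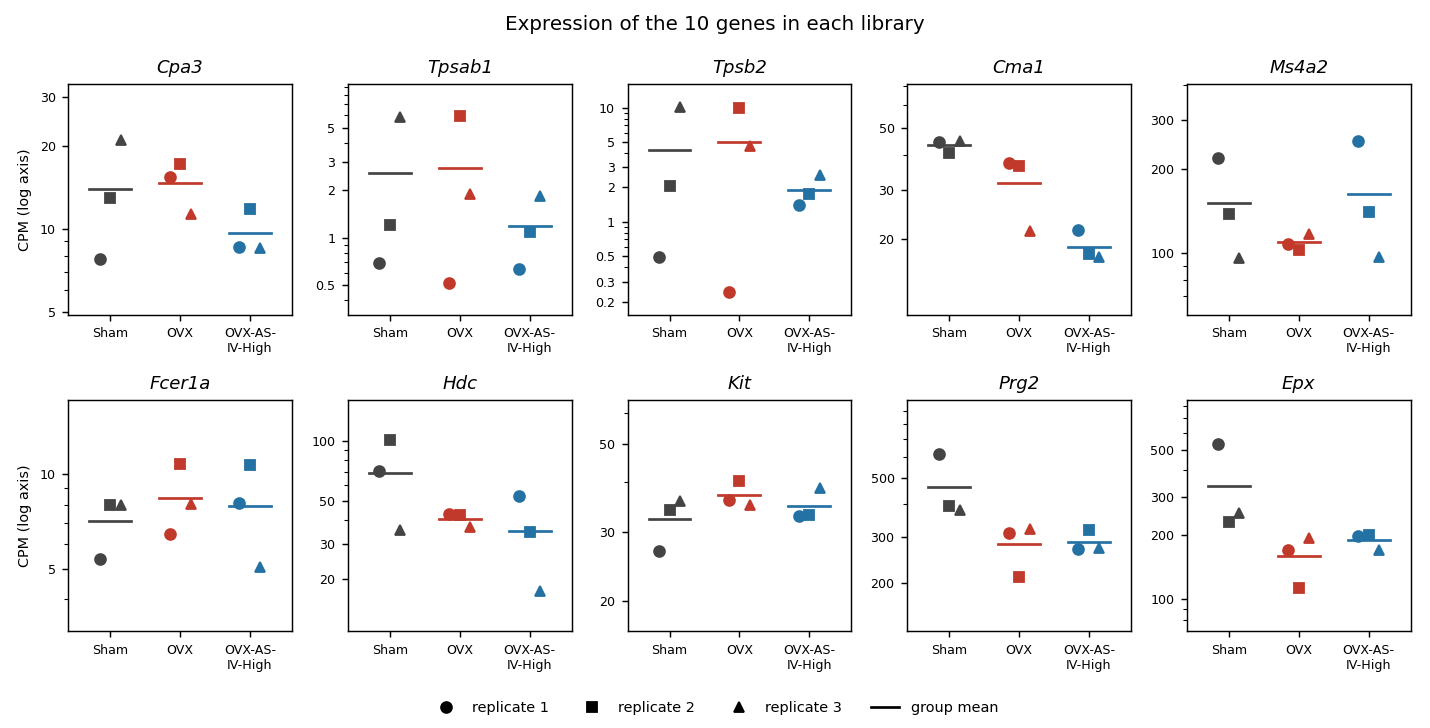
Expression of the 10 genes in CPM (log axes) in each of the 9 libraries, with symbols for replicate numbers and horizontal lines at group means. Cma1 lay between 40.5 and 44.8 CPM in Sham and between 17.2 and 21.6 CPM in OVX-AS-IV-High, while the tryptase genes spread widely within Sham and within OVX.

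Groups were compared with edgeR. A gene was called different where its log2 fold change (log2FC) exceeded 1 in size with an unadjusted p under 0.05. These are the thresholds of the study's results section, while its methods section gives a lower log2FC cut-off. At the lower cut-off Cma1 would also be called in treated vs. OVX (log2FC -0.75), so the counts below depend on this choice. The comparison of OVX with Sham asks what ovariectomy changed. In OVX vs. Sham, 1 of the 10 genes was called, Epx, which fell, against 3.11% of all genes tested in either direction and 2.03% called lower. At an unadjusted p under 0.05 alone, 3 of 10 genes (Epx, Prg2 and Cma1) lay lower and 0 higher, against 8.28% of all genes that lay lower and 8.16% that lay higher. The libraries of the groups did not overlap for the same 3 genes, all lower in OVX, against 10.6% of all genes lower without overlap. The median log2FC of the 10 genes was -0.18, and that of all genes tested -0.01.

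Between treated and OVX rats, a comparison that asks what the treatment changed, 0 of 10 genes were called, against 0.83% of all genes. Only Cma1 had an unadjusted p under 0.05 in edgeR, where it lay lower, against 2.03% of all genes, and it was also the only such gene in DESeq2. The libraries overlapped for all 10 genes, against 12.7% of all genes without overlap. The median log2FC was -0.15, beside -0.02 for all genes. Between treated and Sham rats, 1 of 10 genes was called, Cma1, which was lower, against 3.15% of all genes, and 4 (Cma1, Prg2, Epx and Hdc) had an unadjusted p under 0.05, all lower, against 8.48%. The libraries did not overlap for 3 of these (Cma1, Prg2 and Epx), against 10.3% of all genes lower without overlap. There the median log2FC was -0.76, beside -0.01 for all genes. The comparisons share libraries, and their values stand side by side for each gene below.

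No member reached an adjusted p under 0.05 in edgeR in any comparison, nor did any of the 16874 genes, whose smallest adjusted p was 0.118 in OVX vs. Sham, 0.652 in treated vs. OVX and 0.0639 in treated vs. Sham. DESeq2 gave an adjusted p under 0.05 to Epx and Prg2 in OVX vs. Sham (2 of 10 genes, against 5.25% of all genes with an adjusted p), to 0 of 10 in treated vs. OVX (0.254%) and to Cma1 and Prg2 in treated vs. Sham (2 of 10, against 6.36%). Every called gene named below is therefore called at the unadjusted thresholds.

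**Figure D2:**
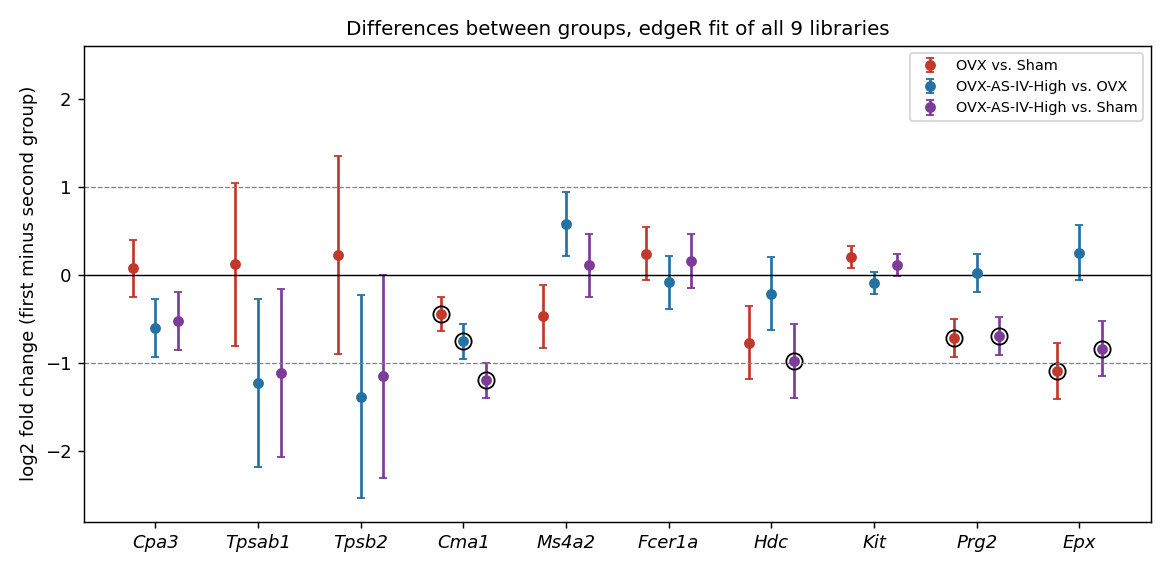
Differences between groups as log2FC with standard errors, for 10 genes and 3 comparisons, from edgeR with all 9 libraries; black rings mark an unadjusted p under 0.05 and dashed lines an absolute log2FC of 1. Epx lay at -1.09 in OVX vs. Sham and Cma1 at -1.20 in treated vs. Sham, and the tryptase genes had the widest error bars.

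The eosinophil granule genes Epx and Prg2 were lower than in Sham after ovariectomy, with or without treatment, at an unadjusted p under 0.05 in edgeR. Rnase2, of the eosinophil ribonuclease family and described below, was higher. Epx encodes eosinophil peroxidase, which forms oxidants from halides and hydrogen peroxide. Its level was 533, 229 and 252 CPM in Sham replicates 1, 2 and 3, 170, 113 and 193 CPM in the OVX libraries, and 198, 199 and 171 CPM in treated libraries. Every ovariectomized library lay below every Sham library, and Sham replicate 1 stood far above the rest. The means were 338 ± 169, 159 ± 41.2 and 189.5 ± 16.2 CPM (SD, n = 3). Epx fell in OVX vs. Sham, with a log2FC of -1.09 (SE 0.315, adjusted p = 0.172 in edgeR).

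The call for Epx rested on 2 libraries. Without Sham replicate 1 the log2FC was -0.60, and without OVX replicate 2 it was -0.89. The unadjusted p stayed under 0.05 in each of the 9 fits that left out a library. Sham replicate 1 also held the highest muscle gene level, 8482 CPM. In Sham replicate 3, with 252 CPM of Epx, the muscle level was 1544 CPM. Over the 9 libraries Epx and the summed muscle genes gave r = 0.587 (exact permutation p = 0.0931, adjusted p = 0.233 over 40 relations). That r was 0.196 without the 2 libraries farthest from the median muscle level. The part of muscle in the level of Epx was not tested.

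For treated vs. OVX, Epx differed by less than the spread between libraries, with a log2FC of 0.25 (SE 0.312, adjusted p = 0.952). In treated vs. Sham it lay lower by a log2FC of -0.83 (SE 0.314, adjusted p = 0.223), without overlap of libraries. That value was -0.34 without Sham replicate 1, and the p was under 0.05 in 6 of the 9 fits that left out a library.

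Prg2 encodes major basic protein, the main protein of the eosinophil granule core. Its level was 616, 391 and 380 CPM in the Sham libraries, 310, 211 and 322 CPM in the OVX libraries, and 269, 318 and 271 CPM in treated libraries. As with Epx, every ovariectomized library lay below the lowest Sham library. Prg2 lay lower in OVX vs. Sham by a log2FC of -0.72 (SE 0.217, adjusted p = 0.181) and in treated vs. Sham by -0.69 (SE 0.217, adjusted p = 0.167). For treated vs. OVX the log2FC was 0.03, with a mean of 286 ± 27.4 CPM after treatment and 281 ± 61.0 CPM in the OVX libraries. Both differences from Sham kept an unadjusted p under 0.05 in 9 of 9 fits without a library, with log2FC from -0.84 to -0.46 in OVX vs. Sham and from -0.81 to -0.42 in treated vs. Sham. The smallest of each, -0.46 and -0.42, came without Sham replicate 1.

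Prg2 and Epx varied together over the 9 libraries. Pearson's r of their log2 CPM was 0.964 (exact permutation p = 0.0003, adjusted p = 0.0119 over 45 pairs of the 10 genes) and Spearman's rho was 0.833 (exact permutation p = 0.0083, adjusted p = 0.124). Without the 2 libraries farthest from the median of Prg2, r was 0.788. The deviations from group means gave r = 0.950, with an exact permutation p of 0.0324 and an adjusted p of 0.292 when libraries were exchanged only within groups. The ratio of Prg2 to Epx FPKM lay between 3.69 in Sham replicate 1 and 5.94 in OVX replicate 2. Among the 5 genes whose pattern was most like that of Prg2 by Pearson's r of log2 CPM over 9 libraries were Prg3 (r = 0.968) and Epx itself, beside C2h1orf52 (0.984), Ywhag (0.967) and LOC120101521 (0.961).

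**Figure D3:**
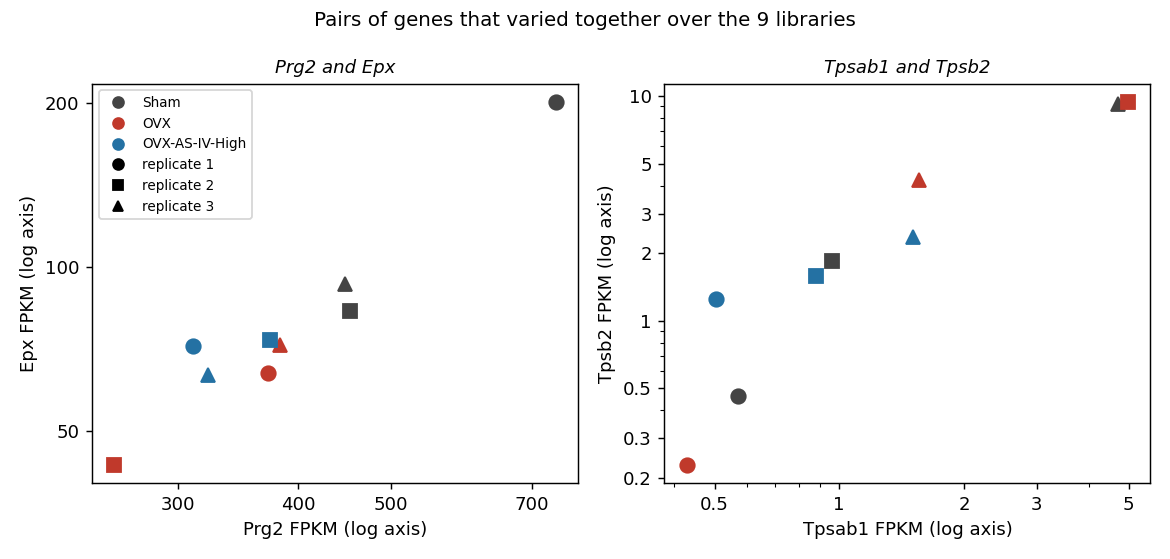
FPKM of Epx against Prg2 (left) and of Tpsb2 against Tpsab1 (right) in the 9 libraries, on log axes, with colours for groups and symbols for replicate numbers. Sham replicate 1 held the highest levels of Prg2 and Epx and OVX replicate 2 the lowest, whereas OVX replicate 1 held the lowest tryptase levels.

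The other eosinophil genes did not all move in the same direction. Of a list of 16 genes for eosinophil growth, chemotaxis and granules, 13 were tested, and in OVX vs. Sham 2 were called higher (Rnase2 and Ccl5, the latter named after its values were seen) and 2 lower (Prg3 and Ccl11), against 1.08% of all genes called higher and 2.03% called lower. At an unadjusted p under 0.05 in edgeR, 3 of the 13 lay higher and 5 lower in OVX vs. Sham, against 8.16% and 8.28% of all genes. The median log2FC of the 13 was -0.30, beside -0.01 for all genes. A total of 0 of 13 were called for treated vs. OVX, against 0.83% of all genes, and 0 had an unadjusted p under 0.05 in edgeR. Only Prg3 was called for treated vs. Sham, where it was lower, against 3.15% of all genes.

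Prg3, a second major basic protein gene next to Prg2 on chromosome 3, was at 190, 101 and 85.5 CPM in the Sham libraries, 56.3, 38.6 and 52.8 CPM in the OVX libraries and 54.2, 71.1 and 56.9 CPM in treated libraries. It fell by 1.35 on the log2 scale in OVX vs. Sham (log2FC -1.35, SE 0.285, adjusted p = 0.138) and by 1.05 in treated vs. Sham (adjusted p = 0.130), with no overlap of libraries. Its log2FC without Sham replicate 1 was -0.93 in OVX vs. Sham and -0.61 in treated vs. Sham, and neither was then called, although the unadjusted p stayed under 0.05. In treated vs. Sham the call was also lost without treated replicate 1 (-0.97) or treated replicate 3 (log2FC -0.999). Ccl11, which encodes the eosinophil attractant eotaxin, fell from 1.10-2.45 CPM in the Sham libraries to 0.0545-0.659 CPM in the OVX libraries (log2FC -2.37, SE 0.813, adjusted p = 0.214), levels of few counts. Rnase2, of the eosinophil ribonuclease family, rose from 17.6-28.4 CPM in the Sham libraries to 52.4-61.1 CPM in the OVX libraries (log2FC 1.25, SE 0.201, adjusted p = 0.118 in edgeR and 6.5e-06 in DESeq2). It was at 38.5-58.4 CPM in treated libraries, above every Sham library (log2FC 0.99, adjusted p = 0.10 in edgeR and 0.00057 in DESeq2), and was not called there. Rodent genomes hold several near-identical ribonucleases of this family, so the split of reads among them is uncertain.

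Further genes of the list were chosen after their values were seen, and all named here had a negative log2FC in OVX vs. Sham. Of these, Il5ra, Ear1 and Alox15 had an unadjusted p under 0.05 in edgeR in that comparison. Il5ra, the interleukin 5 receptor subunit, was at 11.8, 4.43 and 4.62 CPM in the Sham libraries and 3.30, 3.32 and 4.12 CPM in the OVX libraries (log2FC -0.96, adjusted p = 0.248), and its log2FC was -0.34 without Sham replicate 1. That of Ear1 was -0.41 without the same library. Ear1, another ribonuclease, had a log2FC of -0.93 (adjusted p = 0.271), and Alox15, a lipoxygenase of eosinophils and macrophages, one of -0.74 (adjusted p = 0.211). Ccr3, the eotaxin receptor, had a log2FC of -0.60 (adjusted p = 0.334) in OVX vs. Sham, and its treated libraries, at 47.6, 28.8 and 18.3 CPM, spanned both other groups. The neutrophil granule genes Mpo (log2FC 0.46, adjusted p = 0.160) and Elane (log2FC 0.59, adjusted p = 0.149) were higher in every OVX library than in every Sham library, and not called. Epx and Mpo, close neighbours on chromosome 10, thus stood in opposite order between these groups.

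**Figure D4:**
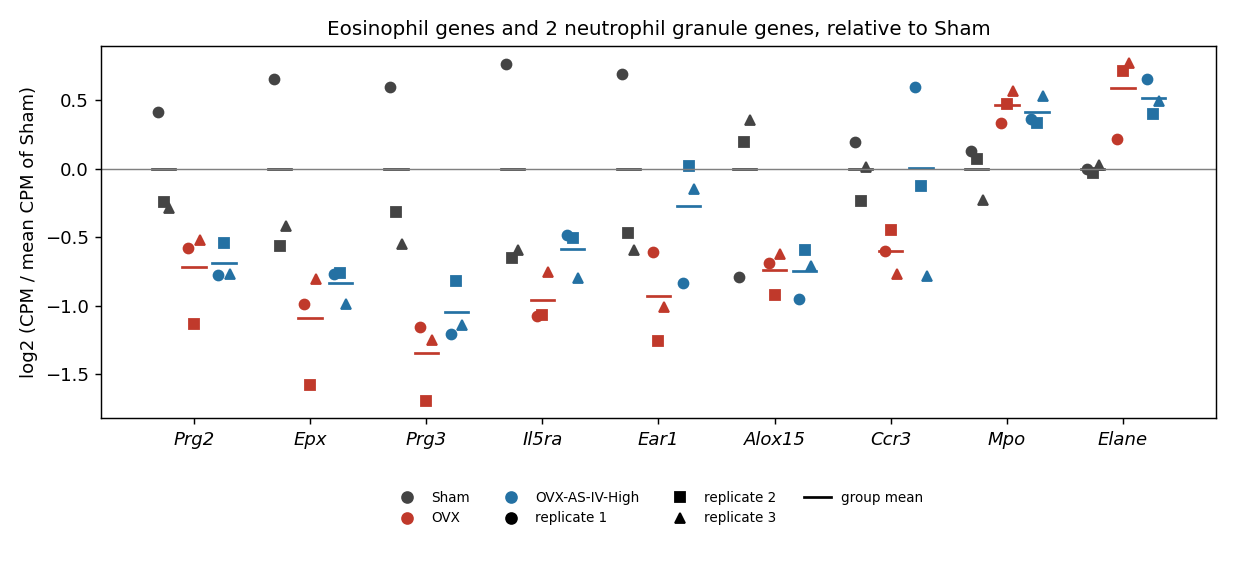
Levels of 7 eosinophil genes and the neutrophil granule genes Mpo and Elane as log2 of the CPM over the mean CPM of Sham, with colours for groups, symbols for replicate numbers and lines at group means. The eosinophil genes shown all had a negative log2FC in OVX vs. Sham. Rnase2 and Ccl5, called higher in that comparison, are not shown. Prg2, Epx and Prg3 lay lower in all 6 ovariectomized libraries than in any Sham library, and Mpo and Elane lay higher.

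Cma1, the gene of mast cell chymase, a chymotrypsin-like granule protease, had the smallest p of the 10 genes between treated and Sham rats. Its level was 44.4, 40.5 and 44.8 CPM in the Sham libraries, 37.5, 36.3 and 21.5 CPM in the OVX libraries, and 21.6, 17.7 and 17.2 CPM in treated libraries. The 3 Sham libraries lay close together, OVX replicates 1 and 2 lay slightly below them, and OVX replicate 3 lay among the treated libraries. The means were 43.2 ± 2.38, 31.8 ± 8.94 and 18.9 ± 2.40 CPM (SD, n = 3). Cma1 fell in treated vs. Sham, with a log2FC of -1.20 (SE 0.198, adjusted p = 0.0815 in edgeR and 1.5e-05 in DESeq2). It was called in each of the 9 fits without a library, with log2FC from -1.31 to -1.14.

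The steps between the groups were smaller. For treated vs. OVX the log2FC of Cma1 was -0.75 (SE 0.197, adjusted p = 0.652), and it was not called. OVX replicate 3 overlapped the treated libraries by a small margin, 21.5 against 21.6 CPM. The p stayed under 0.05 in 9 of 9 fits without a library, with log2FC from -0.97 to -0.62. In OVX vs. Sham the log2FC was -0.44 (SE 0.195, adjusted p = 0.301), and it was -0.23 without OVX replicate 3. Summed pan-leukocyte genes were higher in both ovariectomized groups than in Sham. At an unadjusted p under 0.05 in edgeR, 5 of the 8 lay higher and 1 lower in OVX vs. Sham. In treated vs. Sham 6 lay higher and 1 lower. With libraries scaled to these genes the log2FC of Cma1 in treated vs. Sham was -1.52. Across the 9 libraries the level of Cma1 ran against the summed pan-leukocyte level, with r = -0.769 (exact permutation p = 0.0211) and rho = -0.817 (exact permutation p = 0.0108). Neither passed adjustment over 40 relations (adjusted p = 0.152 and 0.215). Both levels differed between Sham and the ovariectomized groups, and their relation within groups was not tested.

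Cpa3 encodes carboxypeptidase A3, a mast cell exopeptidase stored with chymase. Its level was 7.80, 12.9 and 21.0 CPM in the Sham libraries, 15.4, 17.1 and 11.3 CPM in the OVX libraries, and 8.59, 11.8 and 8.55 CPM in treated libraries. The Sham libraries spanned the range of all others, and the OVX and treated libraries overlapped. The log2FC was 0.07 in OVX vs. Sham (adjusted p = 0.925), -0.60 in treated vs. OVX (adjusted p = 0.854) and -0.53 in treated vs. Sham. The treated library was lower than the OVX library of the same replicate number in 3 of 3 cases, as for Cma1 alone among the other 9 genes. These numbers do not mark matched rats. With the replicate block the log2FC of Cpa3 in treated vs. OVX was -0.62 (adjusted p = 0.693 in edgeR). By Pearson's r of log2 CPM over 9 libraries, the genes most like Cpa3 were Tpgs1 (0.937), Mvb12a (0.936), LOC108348413 (0.928), Tctn2 (0.923) and Supv3l1 (0.909).

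The tryptase genes differed more between libraries of the same group than between groups. Tpsb2, a beta tryptase, was at 0.495, 2.05 and 10.1 CPM in the Sham libraries, 0.245, 9.97 and 4.61 CPM in the OVX libraries, and 1.40, 1.73 and 2.56 CPM in treated libraries. Sham replicate 3 and OVX replicate 2 were high, Sham replicate 1 and OVX replicate 1 were low, and the treated libraries lay between them. The highest FPKM was 41.3 times the lowest. These levels rest on 9 to 378 counts per library.

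Tpsab1, the neighbouring tryptase gene, was at 0.687, 1.20 and 5.80 CPM in the Sham libraries, 0.518, 5.93 and 1.90 CPM in the OVX libraries, and 0.633, 1.08 and 1.84 CPM in treated libraries. The same libraries were high and low, over a range of 11.7 times. The log2FC of Tpsb2 in treated vs. OVX was -1.38 (SE 1.15, adjusted p = 0.928) and that of Tpsab1 was -1.23 (SE 0.953, adjusted p = 0.922), so neither exceeded the spread between libraries. Between OVX and Sham the values were 0.23 (SE 1.12) and 0.12, and their signs turned when Sham replicate 1, Sham replicate 2 or OVX replicate 2 was left out. In treated vs. Sham they turned without Sham replicate 3.

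Because similar genes may share reads, the FPKM of both genes were also summed. How alike their transcripts are was not tested. The sum was 1.03, 2.81 and 13.9 in the Sham libraries, 0.656, 14.4 and 5.80 in the OVX libraries, and 1.76, 2.46 and 3.86 in treated libraries, a 21.97-fold range. The spread between libraries was therefore also present in the sum. Over the 9 libraries Tpsab1 and Tpsb2 gave r = 0.932 (exact permutation p = 0.0005, adjusted p = 0.0119) and rho = 0.967 (exact permutation p = 0.0002, adjusted p = 0.0074), and r was 0.886 without the 2 libraries farthest from the median. Within groups r was 0.947, with an exact permutation p of 0.0046, the smallest the within-group exchange can give, and an adjusted p of 0.208. Neither tryptase gene followed Prg2 (r = -0.345 and -0.410), and neither had an adjusted p under 0.05 with any other of the 10 genes.

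**Figure D5:**
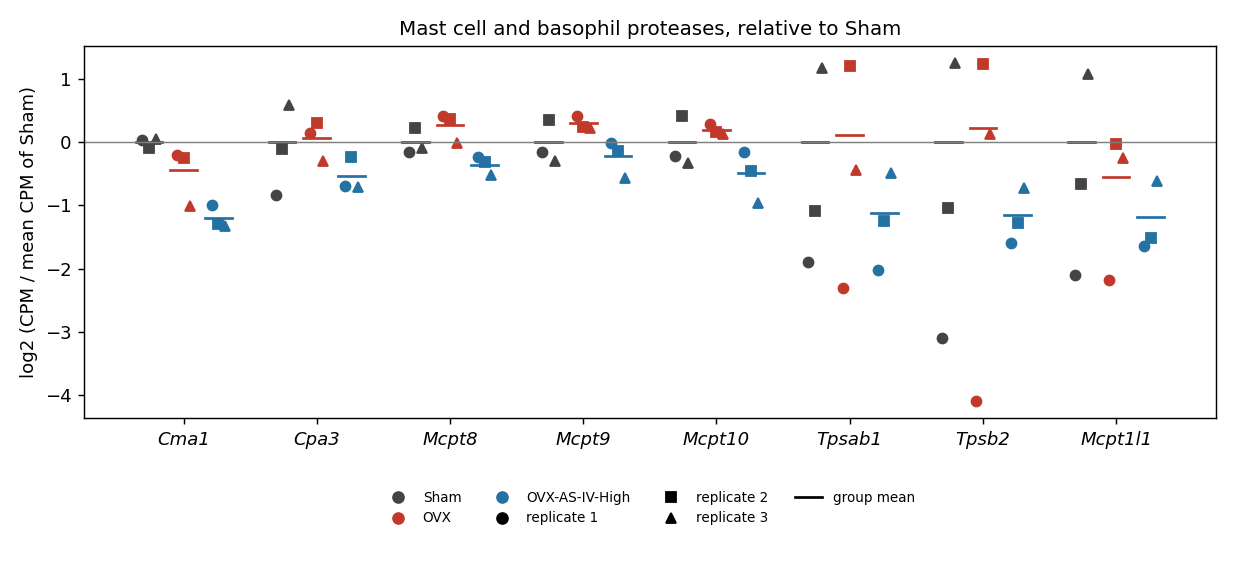
Levels of 8 mast cell and basophil protease genes as log2 of the CPM over the mean CPM of Sham, with colours for groups, symbols for replicate numbers and lines at group means. Within Sham and within OVX, Cma1, Mcpt8, Mcpt9 and Mcpt10 spread less than Tpsab1, Tpsb2 and Mcpt1l1, which spread over several log2 units.

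Of 15 other mast cell and basophil proteases, 11 were measured and 7 tested, and 0 were called in any comparison by edgeR. For treated vs. OVX 3 of 7 had an unadjusted p under 0.05, all lower and without overlap, against 2.03% of all genes lower at that p and 6.36% lower without overlap, and the median log2FC was -0.52, beside -0.02 for all genes. Mcpt10, a granule protease of the Mcpt8 family, was at 512, 468 and 457 CPM in the OVX libraries and 376, 305 and 216 CPM in treated libraries (log2FC -0.68, SE 0.233, adjusted p = 0.664). The other genes of these 3, named after their values were seen, belong to the same family. Mcpt8, a marker of rodent basophils, was at 170, 164 and 126 CPM in the OVX libraries and 108, 102 and 88.5 CPM after treatment (log2FC -0.63, SE 0.148, adjusted p = 0.652). Mcpt9 had a log2FC of -0.52 (SE 0.189, adjusted p = 0.701).

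In OVX vs. Sham the log2FC of Mcpt8, Mcpt9 and Mcpt10 was 0.27, 0.30 and 0.19, and the libraries overlapped. Reads of these near copies may be split, so their values are not independent. Mcpt1l1, chosen after its values were seen, was at 5.03, 13.7 and 46.0 CPM in the Sham libraries and 4.77, 21.2 and 18.1 CPM in the OVX libraries, and was the gene 5th most like Tpsb2 (r = 0.929 over 9 libraries) of the 16873 other genes. Ctsg, the cathepsin G gene of neutrophil granules, lay higher in OVX than in Sham by a log2FC of 0.62 (SE 0.123, adjusted p = 0.138) without overlap.

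The IgE receptor subunits were not called in any comparison. Ms4a2, the beta chain, which amplifies the receptor's signal, was at 219, 137 and 96.1 CPM in the Sham libraries, 108, 103 and 117 CPM in the OVX libraries, and 252, 140 and 97.0 CPM in treated libraries. The OVX libraries lay close together, and in both other groups replicate 1 was highest and replicate 3 lowest. The log2FC was -0.47 in OVX vs. Sham (adjusted p = 0.515) and 0.58 in treated vs. OVX (SE 0.358, adjusted p = 0.891). The first was -0.10 without Sham replicate 1 and -0.71 without Sham replicate 3, and the second was 0.12 without treated replicate 1. Fcer1a, the alpha chain that binds IgE, was at 5.39, 7.95 and 7.97 CPM in the Sham libraries, 6.43, 10.7 and 8.06 CPM in the OVX libraries, and 8.07, 10.7 and 5.06 CPM in treated libraries, with full overlap. The levels of these chains did not follow each other over the 9 libraries, with r = -0.087 (exact permutation p = 0.831) and rho = 0.167 (exact permutation p = 0.678), and r was 0.454 without the 2 libraries farthest from the median of Ms4a2. Ms4a2 exceeded Fcer1a in FPKM in every library.

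Of 18 genes of IgE receptor signalling, all tested, 0 were called in any comparison by edgeR. Between OVX and Sham 5 had an unadjusted p under 0.05 and lay higher and 1 lower, against 8.16% and 8.28% of all genes, with a median log2FC of 0.17 beside -0.01 for all genes. Fcer1g, the shared gamma chain, was at 195-243 CPM in all libraries, with a log2FC of 0.05 in OVX vs. Sham and 0.01 in treated vs. OVX. Ptpn6, a phosphatase that dampens the signal, lay higher in OVX by a log2FC of 0.32 (SE 0.0976, adjusted p = 0.186). The treated vs. OVX comparison gave 0 of the 18 an unadjusted p under 0.05.

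Hdc encodes histidine decarboxylase, which makes histamine. It was at 70.4, 101 and 35.3 CPM in the Sham libraries, 42.5, 42.2 and 36.6 CPM in the OVX libraries, and 52.8, 34.5 and 17.4 CPM in treated libraries. Sham replicates 1 and 2 were above all other libraries, and Sham replicate 3 lay below every OVX library. Hdc was not called in OVX vs. Sham (log2FC -0.77, SE 0.417, adjusted p = 0.374), and its value was -0.38 without Sham replicate 2 and -1.08, a called value, without Sham replicate 3. In treated vs. Sham the log2FC was -0.98 (SE 0.419, adjusted p = 0.270), with overlapping libraries, and the unadjusted p was under 0.05 in only 2 of the 9 fits without a library. That log2FC lay between -1.41 without treated replicate 1 and -0.59 without Sham replicate 2.

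The level of Hdc moved with skeletal muscle genes. Its log2 CPM correlated with that of 9 summed muscle genes with r = 0.927 (exact permutation p = 0.0008, adjusted p = 0.0325 over 40 relations of the 10 genes with 4 marker lists) and rho = 0.867 (exact permutation p = 0.0045, adjusted p = 0.180). Without the 2 libraries farthest from the median muscle level r was 0.876. This relation was examined after the levels had been seen. Of 16873 other genes, Myog, a regulator of muscle differentiation, was 7th most like Hdc (r = 0.949 over 9 libraries) and Des, the muscle filament gene desmin, 10th (r = 0.946). Muscle genes and Hdc were highest in Sham replicates 1 and 2 and lowest in treated replicate 3.

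Of 7 genes for histamine handling and receptors, 5 were tested and 0 were called by edgeR in any comparison. Slc18a2, the vesicular amine transporter that loads histamine into granules, was at 15.6, 18.8 and 13.8 CPM in the Sham libraries and 14.2, 9.23 and 8.00 CPM in the OVX libraries (log2FC -0.62, SE 0.242, adjusted p = 0.258). It was the only gene of the 5 with an unadjusted p under 0.05 in OVX vs. Sham, against 8.28% of all genes lower at that p, and none of the 5 had such a p in the other comparisons. The median log2FC of the 5 was -0.62 in OVX vs. Sham, -0.02 in treated vs. OVX and -0.85 in treated vs. Sham, where 3 of the 5 were lower without overlap, against 10.3% of all genes. Hrh3, a histamine receptor, had a log2FC of 0.20 in OVX vs. Sham and -0.02 in treated vs. OVX. Of 7 lipid mediator enzymes, Ptgs2, the inducible cyclooxygenase, was the only gene called. Of all genes, 3.11% were called in OVX vs. Sham and 0.83% in treated vs. OVX. Ptgs2 fell in OVX vs. Sham (log2FC -1.36, adjusted p = 0.153 in edgeR and 0.0077 in DESeq2). It rose in treated vs. OVX (log2FC 1.61, adjusted p = 0.652 in edgeR and 0.0099 in DESeq2).

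Kit, the stem cell factor receptor of mast cells and blood progenitors, was the steadiest of the 10 genes, with a highest FPKM 1.52 times the lowest. It was at 26.9, 34.1 and 35.9 CPM in the Sham libraries, 36.1, 40.3 and 35.1 CPM in the OVX libraries, and 32.8, 33.1 and 38.7 CPM in treated libraries. Sham replicate 1 was the lowest library, and the groups overlapped. The log2FC was 0.20 in OVX vs. Sham (adjusted p = 0.426) and -0.09 in treated vs. OVX. Kit ran against Epx over the 9 libraries, with r = -0.910 (exact permutation p = 0.0034, adjusted p = 0.0503) and rho = -0.750 (exact permutation p = 0.0255, adjusted p = 0.287). Without the 2 libraries farthest from the median of Kit, r was -0.369, so the relation rested on those libraries. The genes most like Kit were Nfyc (r = 0.956), Fem1b (0.953), Tbc1d14 (0.953), Eif3h (0.951) and Fubp3 (0.948).

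Kit also ran against Ms4a2, with r = -0.793 (exact permutation p = 0.0065, adjusted p = 0.0728) and rho = -0.867 (exact permutation p = 0.0045, adjusted p = 0.101), and r was -0.786 without the 2 libraries farthest from the median. The summed muscle genes gave r = 0.734 with Ms4a2 and -0.753 with Kit. The summed bone genes gave r = -0.793 with Ms4a2 and 0.733 with Kit. Each had an adjusted p of 0.152 by exact permutation over 40 relations. Without the 2 libraries farthest from the median muscle or bone level, these were 0.613, -0.445, -0.306 and 0.312. The part of muscle or bone in the relation of Kit with Ms4a2 was not tested. In all, 5 of 45 pairs had an exact permutation p under 0.05 for r, and 2 had an adjusted p under 0.05, Prg2 with Epx and Tpsab1 with Tpsb2. Of the 45 values of r, 22 were above 0 and 23 below. The 10 genes thus did not vary as a single group over these libraries.

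Of 20 regulators and receptors of the mast cell and basophil lineage, 16 were tested. In OVX vs. Sham and in treated vs. Sham 0 were called by edgeR. At an unadjusted p under 0.05, 2 lay higher and 2 lower in OVX vs. Sham, against 8.16% and 8.28% of all genes, and 3 lay higher and 3 lower in treated vs. Sham, against 9.17% and 8.48%. The median log2FC of the 16 was -0.21 and -0.03, beside -0.01 for all genes in both comparisons. Only Cd200r1 was called for treated vs. OVX, against 0.83% of all genes. It encodes an inhibitory receptor of myeloid cells and was at 32.5, 22.3 and 25.1 CPM in the OVX libraries and 109, 48.0 and 27.2 CPM after treatment (log2FC 1.20, SE 0.453, adjusted p = 0.708). The libraries overlapped, and the log2FC was 0.50 without treated replicate 1; the call was also lost without OVX replicate 2 (1.09) or OVX replicate 3 (1.16). Cd200r1 was highest in the library in which Ms4a2 was highest, and r between them was 0.927 over 9 libraries, the 57th of 16873 genes.

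Other genes of the list were named after their values were seen. Kitlg, which encodes stem cell factor, the ligand of Kit, was at 69.4, 77.8 and 63.1 CPM in the OVX libraries and 93.0, 120 and 85.1 CPM in treated libraries (log2FC 0.50, SE 0.138, adjusted p = 0.652), without overlap and not called. In Sham it was at 71.9, 79.0 and 69.7 CPM. Gata2, a transcription factor of mast cells, basophils and progenitors, was at 75.1, 62.3 and 45.4 CPM in the Sham libraries and 44.2, 38.7 and 37.3 CPM in the OVX libraries (log2FC -0.61, SE 0.266, adjusted p = 0.300). Il1rl1, the interleukin 33 receptor, lay lower in treated vs. Sham by a log2FC of -0.68 (SE 0.218, adjusted p = 0.170).

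Of 13 genes of Kit-expressing blood progenitors, Hlf, a transcription factor of blood stem cells, was the only gene called. It was called in OVX vs. Sham and in treated vs. Sham, against 3.11% and 3.15% of all genes. It fell from 8.00, 8.51 and 7.97 CPM in the Sham libraries to 2.73, 2.69 and 5.89 CPM in the OVX libraries (log2FC -1.11, SE 0.302, adjusted p = 0.160). It stood at 2.75, 3.20 and 2.91 CPM in treated libraries (log2FC against Sham -1.46). The call in OVX vs. Sham was lost without OVX replicate 1 (log2FC -0.93) or OVX replicate 2 (-0.92). Between OVX and Sham 3 of the 13 had an unadjusted p under 0.05 and lay higher, and 3 lay lower, against 8.16% and 8.28% of all genes, and the median log2FC of the 13 was -0.24.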

How the data were processed

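Poly(A) RNA from the bone of 9 female rats was sequenced in 3 groups of 3. The authors used Tophat and Bowtie2 for alignment and eXpress to quantify genes, and the submitters' processing notes name the genome build mRatBN7.2. The deposited tables hold raw counts, as whole numbers for each gene, and the authors' FPKM values, which are the same counts rescaled by gene length and depth. eXpress divides reads among similar genes, so values of near-identical copies are uncertain, and the labels describe strand-specific libraries.

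Counts were tested with edgeR 4.0.16 (R 4.3.3; quasi-likelihood, TMM, default filter with a minimum count of 10, all 9 libraries in 1 fit), and p-values were adjusted by Benjamini-Hochberg over 16874 genes. Standard errors are the absolute log2FC over the square root of F. CPM use TMM library sizes, and correlations use log2 CPM with a prior count of 2 and exact permutation over all pairings, two-sided. Alternatives were DESeq2 1.42.0, limma 3.58.1 on log2(FPKM + 1) and log2(FPKM + 0.1), other scalings, no filter, a replicate block, only the groups compared, and each library left out. A total of 0 columns belonged to other samples. Figures used matplotlib 3.10.9.

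The 10 genes and the other lists were chosen with earlier results of these data known. Of each other list, up to 3 called genes with the smallest p are named, or up to 2 with the highest mean FPKM if none was called; for Cpa3, Prg2 and Kit the 5 genes with the highest r are named, and others are said to be chosen after their values were seen. Replicate numbers entered a fit only as a block, 1 of the alternatives. Between OVX and OVX-AS-IV-High libraries of the same number, deviations from group means correlated at 0.31, 0.158 and 0.13 for replicates 1, 2 and 3. For Sham with OVX they were 0.2, -0.161 and 0.253, and for Sham with OVX-AS-IV-High 0.314, -0.158 and 0.435. The rats are described as separate animals, and the labels used here do not pair them. RefSeq tables of GRCr8 gave promoters and the order of genes.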

Additional observations from a re-analysis of the deposited data

How the results depend on the processing

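The value of 1 called gene in OVX vs. Sham became 2 (Epx and Hdc) with libraries scaled to pan-leukocyte genes and 0 with limma on log2(FPKM + 1), on log2(FPKM + 0.1) and on log2(FPKM + 1) without a filter, where the log2FC of Epx lay just above -1. It ranged from 0 to 2 when each library was left out: 0 without Sham replicate 1 or OVX replicate 2, and 2 without Sham replicate 3. The 0 calls in OVX-AS-IV-High vs. OVX stayed 0 in each of the 20 alternatives. The 1 call in OVX-AS-IV-High vs. Sham became 4 (Cma1, Epx, Hdc and Prg2) under the pan-leukocyte scaling, which moved the median of all genes by -0.26 and -0.32 on the log2 scale in the comparisons with Sham, and ranged from 1 to 3 without a library (2 without Sham replicate 2 or OVX-AS-IV-High replicate 1, and 3 without Sham replicate 3). Pairs of genes with an adjusted p numbered 1 by ranks and 0 by deviations from group means (both added after the data were seen), beside 2; the exchange within groups allows 216 arrangements, too few for a single pair to pass. The relation of Hdc with muscle genes gave 1 such relation by r and 0 by ranks.

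With the replicate block the counts stayed at 1, 0 and 1, the log2FC of Cma1 in OVX-AS-IV-High vs. OVX was -0.74, and no gene crossed an unadjusted p of 0.05.

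Signs turned under the pan-leukocyte scaling in OVX vs. Sham for Cpa3 (-0.18), Tpsab1 (-0.12), Tpsb2 (-0.013), Fcer1a (-0.010) and Kit (-0.052), in OVX-AS-IV-High vs. OVX for Prg2 (-0.026), and in OVX-AS-IV-High vs. Sham for Ms4a2 (-0.22), Fcer1a (-0.15) and Kit (-0.20). By total counts without TMM Prg2 was at -0.0071 in OVX-AS-IV-High vs. OVX. Without a library, signs turned in OVX vs. Sham for Cpa3 (-0.22 to 0.50), Tpsab1 (-1.08 to 1.56) and Tpsb2 (-0.79 to 1.96), in OVX-AS-IV-High vs. OVX for Fcer1a (-0.36 to 0.16), Hdc (-0.64 to 0.11) and Prg2 (-0.15 to 0.13), and in OVX-AS-IV-High vs. Sham for Tpsab1 (-1.57 to 0.33), Tpsb2 (-1.67 to 0.58), Ms4a2 (-0.35 to 0.49) and Fcer1a (-0.11 to 0.40). None of these was called; the cause was not tested. With 3 libraries a group, standard errors of 0.93 to 1.15 for the tryptase genes limit what their differences can show.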
